A study of Mus musculus with 74 samples.

Results

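The genes described here are 9 members of the carbonic anhydrase family, Car1, Car2, Car3, Car4, Car8, Car9, Car12, Car13 and Car14, out of 24015 gene rows in one table of RNA-seq read counts from mouse gut epithelium. They were chosen by name with their counts in all 15 RNA groups in view, so their levels and differences are a description and carry no test. The family's other 7 rows, Car5a, Car5b, Car6, Car7, Car10, Car11 and Car15, are treated apart, and tests are given only for genes that are not among the 9.

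The 31 libraries fall into 15 groups of 2 libraries, except 1 group of 3. Wild-type (WT) CD1 embryos gave forestomach, the squamous part of the mouse stomach, hindstomach, its glandular part, and small intestine at E12, E14 and E16, and small intestine also at E18. The groups labelled Cdx2-/- lack, by their labels, the homeodomain factor Cdx2 of the intestinal epithelium, and all are on a B6;129 mixed background: Cdx2f/f; Shh-Cre small intestine with deletion at E10, untreated and harvested at E16 (3 libraries), and Cdx2f/f; Villin-Cre small intestine after 5 mg of tamoxifen by gavage, deleted at E13 and harvested at E16 or deleted at E15 and harvested at E18. Adult villi from the distal ileum came from Cdx2f/f; Villin-Cre mice given 1 mg of tamoxifen on 5 days and killed 3 days later, and from Cdx2f/f mice without Cre given oil, both on the mixed background. Shh-Cre acts in the early gut epithelium and Villin-Cre in the intestinal epithelium. Strain, genotype and, where it was given, tamoxifen differ together in the embryonic comparisons and cannot be told apart there, and in the adults Cre and tamoxifen differ together. Trypsin digestion and sorting for the epithelial surface protein Epcam preceded the E12 to E16 libraries, and EDTA release of villi the E18 and adult ones. Day and preparation therefore differ together wherever libraries harvested at E16, with any label, are set against E18 WT. Nothing says that the libraries of a group came from separate animals, so p-values measure only the spread between these samples, which may be technical. Another 38 samples of open chromatin (ATAC-seq) and 5 of ChIP-seq belong to the series and were not used here.

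Carbonic anhydrases are zinc enzymes that interconvert carbon dioxide and water with bicarbonate and a proton. In the acid-secreting cells of the glandular stomach a cytosolic carbonic anhydrase supplies the proton that the gastric proton pump exports, and the bicarbonate leaves across the opposite membrane. In the intestine, cytosolic and cell-surface carbonic anhydrases work beside sodium-proton and chloride-bicarbonate exchangers in salt absorption and in the neutralisation of acid.

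Library totals ran from 5970227 to 62463167 counts. Levels are CPM, the counts scaled to a common TMM-adjusted library size, with 3 counts in a library taken as the floor, which covers counting error only. Adult libraries were made with another kit and scaled apart, so adult and embryonic levels are not compared, and levels of different genes are not compared because the counts are not per length. In bulk RNA, fewer cells of a type and less RNA per cell cannot be told apart. Cdx2 itself stood at 196 and 218 CPM in WT small intestine at E16. It was 17.4, 14.5 and 27.5 CPM in the libraries labelled deleted at E10, lower by edgeR's test (adjusted p = 3.04e-09) with a log2 difference of -3.40 and an SE of 0.27. The libraries labelled deleted at E13 had Cdx2 at 213 and 217 CPM, those deleted at E15 at 388 and 371 CPM against 200 and 206 CPM in WT at E18, and the adult libraries labelled Cdx2-/- at 472 and 462 CPM against 242 and 248 CPM. In these 3 groups the Cdx2 count does not bear out the label; whether reads fall in a deleted exon cannot be seen in counts per gene, and all 4 groups are therefore called by their labels.

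Some WT libraries also stand apart from their label. The E16 forestomach pair held the summed level of 12 muscle and mesenchyme markers at 26700 to 33700 CPM, against 1470 to 1610 CPM in E16 small intestine, and that of 4 epithelial markers at 620 to 697 CPM, against 3920 to 4070 CPM in E16 hindstomach. Their summed red-cell markers reached 14600 to 19700 CPM (5 of 11 above the floor), against 1050 to 1490 CPM in E16 hindstomach and 183 to 187 CPM in E16 small intestine. The E12 libraries labelled hindstomach had 4 intestinal markers at 155 to 210 CPM, which overlaps 172 to 183 CPM in E12 small intestine, had Cdx2 at 116 and 160 CPM, and had 3 hindstomach markers at only 0.269 to 0.554 CPM. As each of these is a whole group of 2, no value of the group can be given without them. Every value below for E16 forestomach or E12 hindstomach, list counts included, comes from these libraries, and the part of the marked cells in it was not tested.

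Promoter windows of 300 bases, 250 before and 50 after the start of transcription, were available for 4 of the 9 members from RefSeq (GRCm38.p6). Those of Car4 and Car9 are shown because these 2 genes had differences of at least log2 1 in both directions among the groups labelled Cdx2-/-, which Car12 did not. Capitals mark ACGTG, the core bound by hypoxia-inducible factor, and TTTAT, a core bound by CDX factors, searched on both strands, where they read CACGT and ATAAA on the strand shown. The Car4 window is chr11:84957504-84957803 on the plus strand and the Car9 window chr4:43506776-43507075 on the plus strand.
Car4: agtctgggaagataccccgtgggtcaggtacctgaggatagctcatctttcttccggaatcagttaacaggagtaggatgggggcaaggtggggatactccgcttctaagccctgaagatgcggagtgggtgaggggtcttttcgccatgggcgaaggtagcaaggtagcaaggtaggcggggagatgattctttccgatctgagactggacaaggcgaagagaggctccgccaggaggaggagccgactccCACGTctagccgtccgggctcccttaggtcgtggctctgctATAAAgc
Car9: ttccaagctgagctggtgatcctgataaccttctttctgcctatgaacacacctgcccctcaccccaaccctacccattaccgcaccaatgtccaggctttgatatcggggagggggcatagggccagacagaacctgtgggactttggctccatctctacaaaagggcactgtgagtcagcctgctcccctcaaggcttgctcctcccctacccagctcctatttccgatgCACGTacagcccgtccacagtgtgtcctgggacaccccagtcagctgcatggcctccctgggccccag
Car9 had 1 match to ACGTG, beginning 18 bases before the start site, and 0 to TTTAT. Car4 had 1 match to each, both after the start site. The Car14 window had 1 match to ACGTG and the Car12 window had none to either motif. ACGTG occurs in 19.6% of 32851 promoter windows of the same length and TTTAT in 40% of them, so a match is a description of these letters and no more.

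Of the cytosolic enzymes, Car2, the fast isoform of acid-secreting and many other epithelia, had the widest range. In WT small intestine it stood at 0.101 and 2.33 CPM at E12, 2.01 and 2.33 at E14, 27.8 and 19.4 at E16, and 131 and 130 at E18, so that each step from E14 onward separated the libraries. The log2 difference was 3.46 (SE 0.46) from E14 to E16 and 2.46 (SE 0.41) from E16 to E18. Red-cell markers in the same libraries summed to 48.5 to 55.2 CPM at E14, 183 to 187 at E16 and 0.823 to 1.56 at E18, and muscle and mesenchyme markers to 353 to 385, 1470 to 1610 and 38 to 39.9 CPM. Both were thus higher at E16 than at E14, as Car2 was, and lower at E18, where Car2 was higher still; their part in the E16 value was not tested. Both stomach regions had more Car2 than the small intestine of the same day, although at E12 the hindstomach pair is the one with intestinal markers and at E16 the forestomach pair the one with red-cell markers. Hindstomach held 43.2 and 34.7 CPM at E12, 108 and 111 at E14 and 311 and 339 at E16, and its E16 level was 13.8 times that of E16 small intestine (log2 3.78, SE 0.43). From E14 to E16 the hindstomach libraries also differed in red-cell markers (13.5 and 14.5 CPM, then 1050 and 1490), in muscle and mesenchyme markers (125 and 134, then 7540 and 7890) and in 4 pancreatic acinar markers (660 and 686, then 1670 and 1920). Their part in the Car2 level was not tested.

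Forestomach Car2 dipped and then reached the top of the WT range: 80.3 and 83.5 CPM at E12, 19.5 and 21.6 at E14, 1080 and 1470 at E16. The log2 difference was -1.99 (SE 0.41) over the first interval and 5.96 (SE 0.48) over the second. Car2 is also a major enzyme of red cells, and the E16 forestomach libraries are those with the red-cell and mesenchyme markers given above; the part of those cells in the E16 value was not tested. The interval from E12 to E14 does not include those libraries. Over it red-cell markers were lower as Car2 was, at 232 to 268 CPM at E12 and 30 to 33 CPM at E14. Their part in that difference was not tested.

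The highest embryonic Car2 levels lay in the 3 groups labelled Cdx2-/-. Deletion at E10 gave 2650, 2650 and 1780 CPM, deletion at E13 gave 3480 and 3550 CPM, and deletion at E15 gave 1790 and 1830 CPM. On the TMM-adjusted scale every one of these 7 libraries was above every embryonic WT library, E16 forestomach included. With counts divided by library totals, the groups deleted at E10 and at E15 overlapped E16 forestomach. Against WT intestine of the same day the differences were 100-fold (log2 6.64, SE 0.49), 149-fold (log2 7.22, SE 0.51) and 13.9-fold (log2 3.80, SE 0.43). Here red-cell markers summed to 6.15 to 14.5, 3.18 to 3.93 and 0.191 to 0.207 CPM, below the 183 to 187 CPM of E16 WT and the 0.823 to 1.56 CPM of E18 WT. The 3 hindstomach markers were higher together with Car2, at 3290 to 7940, 1620 to 1690 and 25.6 to 27.9 CPM against 3.77 to 4.93 CPM in E16 WT and 0.329 to 0.411 CPM in E18 WT, and in the adult at 4.06 to 9.92 against 0 to 0.0625 CPM; their part in the Car2 levels was not tested. In adult ileum Car2 was low in both groups, 2.19 and 2.21 CPM (35 and 39 counts) without Cre and 13.7 and 9.85 CPM with the label Cdx2-/-, a 5.35-fold difference (log2 2.42, SE 0.26). In order of TMM-adjusted level among the embryonic groups, the one deleted at E13 came first. Those deleted at E10 and at E15 followed and overlapped in rank by library. E16 forestomach, E16 hindstomach and E18 intestine came next without overlap on this scale.

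**Figure D1:**
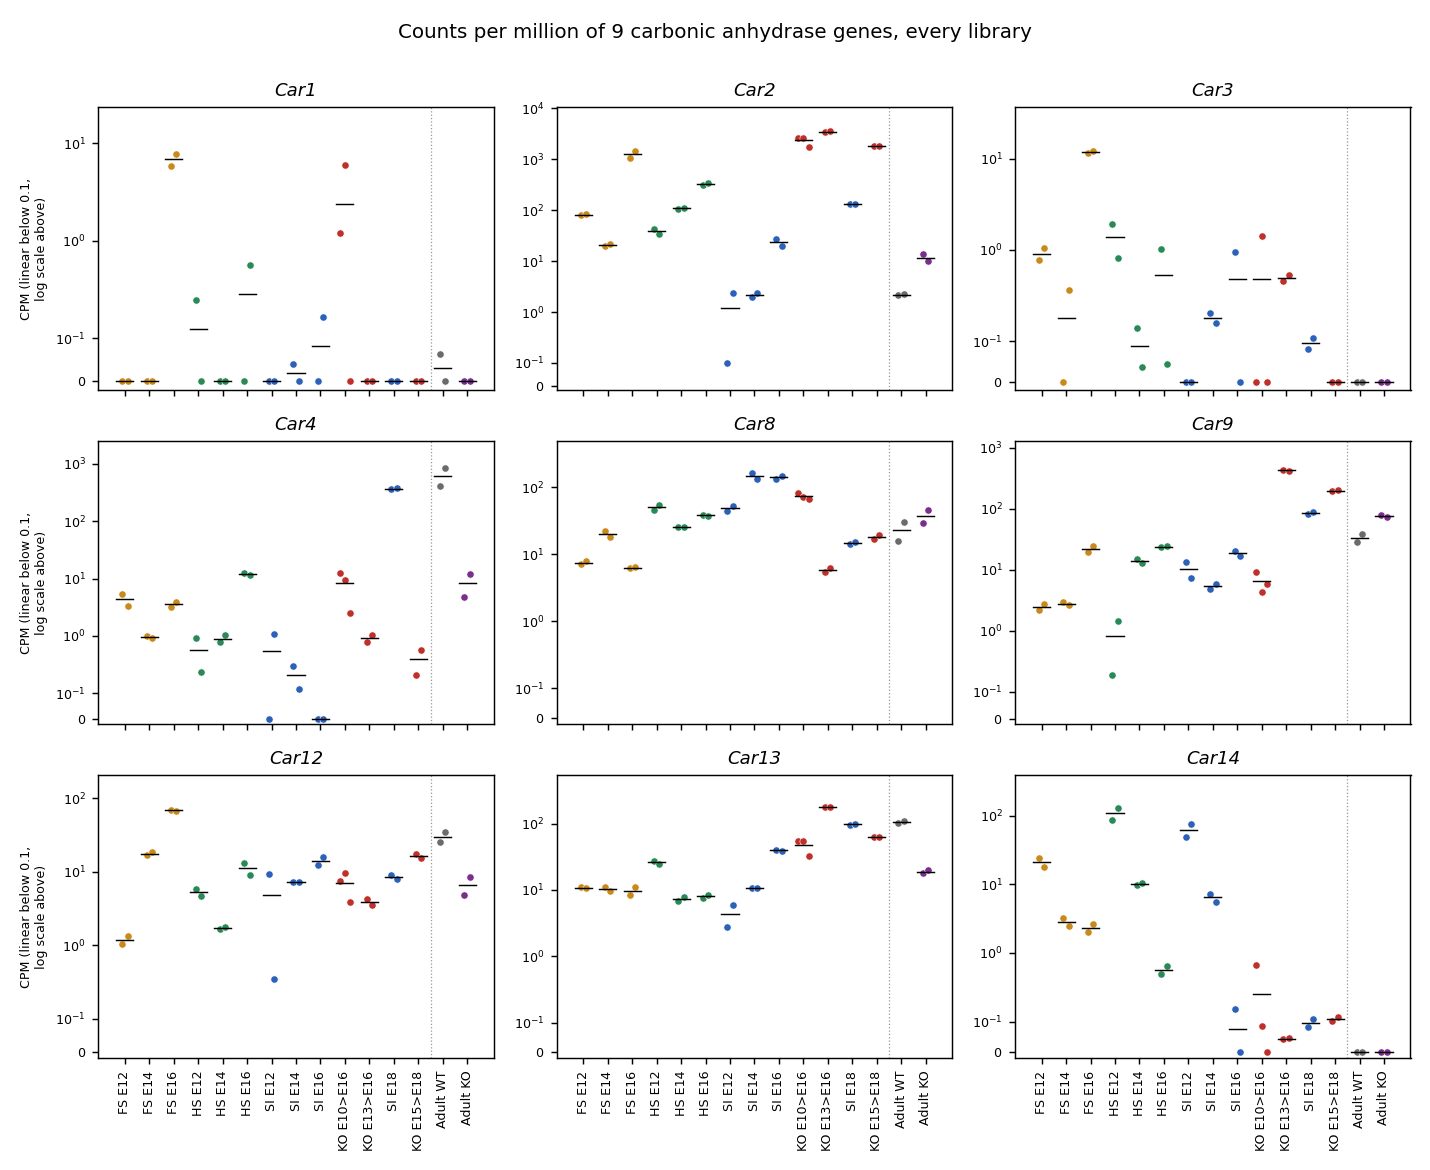
CPM of the 9 genes in every library (points) with group means (bars), by group, on an axis that is linear below 0.1 and logarithmic above; FS is forestomach (ochre), HS hindstomach (green), SI WT small intestine (blue), KO the embryonic groups labelled Cdx2-/- with days of deletion and harvest (red), and the adult groups, scaled apart, stand right of the dotted line. Car2 is at 1780 to 3550 CPM in the 7 embryonic libraries labelled Cdx2-/-, Car4 is at 359 and 372 CPM in E18 WT intestine, and Car14 is highest at E12.

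Car13, a second cytosolic enzyme, was higher in WT intestine on each later day: 2.74 and 5.96 CPM at E12, 10.6 and 10.6 at E14, 40.6 and 38.9 at E16, and 94.8 and 100 at E18. No 2 of these days overlapped. In forestomach it stayed between 8.34 and 11 CPM on all 3 days. In hindstomach it went from 27.7 and 25 CPM in the E12 pair that stands apart to 6.77 and 7.71 at E14 and 7.45 and 8.53 at E16. The intestine had 4.97 times the hindstomach level at E16, a log2 difference of -2.31 (SE 0.27) for hindstomach minus intestine.

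Car13 stood on both sides of WT in the groups labelled Cdx2-/-. Deletion at E10 gave 55.5, 54.4 and 32.1 CPM, which overlaps WT at E16. With counts divided by library totals, these libraries lay below both E16 WT libraries instead. After deletion at E13 Car13 was 177 and 180 CPM, above E16 WT by log2 2.17 (SE 0.26) and also above both E18 WT libraries. After deletion at E15 it was 61.8 and 62 CPM, below E18 WT by log2 -0.65 (SE 0.25). In adult ileum it stood at 18.1 and 19.8 CPM against 103 and 110 CPM, log2 -2.49 (SE 0.13).

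Car1 and Car3 were low throughout. Car1, the abundant isoform of red cells and colon, reached 5.87 and 7.81 CPM (38 and 51 counts) in E16 forestomach and was at 0 in both libraries at E14, at least 57.7-fold higher by the floor. Elsewhere it exceeded 1 CPM only in 2 of the 3 libraries deleted at E10, at 1.2, 5.96 and 0 CPM. Car3, the isoform of skeletal muscle and fat, was at 11.6 and 12.2 CPM in E16 forestomach (75 and 80 counts) and at or below 1.94 CPM in every other library. The E16 forestomach libraries also held the red-cell markers given above and 5 skeletal muscle markers at 94.8 to 141 CPM, against 7.9 to 9.18 CPM in E16 hindstomach; their part in either result was not tested. Of 4 fat markers, none was above the floor in that group. In adult ileum Car1, Car3 and Car14 held at most 1 count in a library.

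By the RefSeq gene order, Car13, Car1, Car3 and Car2 are consecutive protein-coding genes on chromosome 3. Car1 and Car3 were highest in E16 forestomach among the embryonic groups, and Car2 and Car13 in the libraries deleted at E13, where Car1 was at 0 in both libraries and Car3 at 0.455 and 0.535 CPM.

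Car8 is a family member that lacks the catalytic zinc site and is known as a binding protein of the inositol trisphosphate receptor. It was highest in intestine at E14 and E16: 45 and 51.9 CPM at E12, 164 and 134 at E14, 135 and 148 at E16, then 14.1 and 15.5 at E18. The log2 difference from E12 to E14 was 1.62 (SE 0.15) and from E16 to E18 it was -3.26 (SE 0.17), while E14 and E16 overlapped. At E16 the hindstomach had 39.2 and 37 CPM and the forestomach 6.17 and 6.43 CPM, log2 -1.90 (SE 0.16) and -4.49 (SE 0.19) relative to intestine. The forestomach pair is the one that stands apart, with epithelial markers at 620 to 697 CPM against 6530 to 6800 CPM in intestine; their part in its Car8 level was not tested. The E12 hindstomach pair, at 45.9 and 54.3 CPM, overlapped E12 intestine.

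Libraries deleted at E10 had 82.5, 70.9 and 66.6 CPM of Car8, below E16 WT by log2 -0.95 (SE 0.14). Those deleted at E13 had 5.5 and 6.16 CPM, the lowest of the 13 embryonic group means, log2 -4.60 (SE 0.18) below E16 WT and also below both E18 WT libraries. Pancreatic acinar markers were also lower than in E16 WT intestine (506 to 567 CPM) after deletion at E13 (32 to 32.1 CPM) and in E18 WT (0.274 to 0.329 CPM), although these last 2 groups stood in the opposite order to Car8. In the libraries deleted at E10 the acinar sums were 7.81, 432 and 545 CPM, and the library with the lowest sum had the highest Car8; the part of these markers in the Car8 levels was not tested. Deletion at E15 gave 17 and 19.4 CPM, log2 0.30 (SE 0.16). In adult ileum 29.5 and 46.2 CPM overlapped 15.9 and 30.2 CPM.

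Among the enzymes at the cell surface, Car4, which is held to the outer membrane by a lipid anchor and is found on absorptive brush borders, showed the sharpest onset. It was at 0 counts in both WT intestine libraries at E16 and at 359 and 372 CPM (4365 and 6783 counts) at E18, at least 2320-fold higher against the floor. Earlier intestine held 0 and 1.08 CPM at E12 and 0.299 and 0.118 at E14. Hindstomach held 0.776 and 1.02 CPM at E14 and 12.3 and 11.7 at E16, log2 3.74 (SE 0.74), and forestomach stayed between 0.94 and 5.36 CPM. Over the same hindstomach interval 4 endothelial markers summed to 1.31 and 1.35 and then 108 and 158 CPM, 5 neural markers to 22.7 and 24.5 and then 442 and 449 CPM, and the muscle and mesenchyme markers were higher at E16 by the values given beside Car2; their part in the hindstomach values of Car4 and the other members was not tested. The E18 libraries are from villi released with EDTA and the E16 ones from Epcam-sorted cells, so day and preparation cannot be told apart across that step.

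In the libraries labelled Cdx2-/- the direction of the Car4 difference depended on the WT group it was set against. At E16, where WT had none, deletion at E10 gave 12.7, 9.48 and 2.47 CPM and deletion at E13 gave 0.785 and 1.03 CPM. The first was at least 52.2-fold higher than WT and the second at least 5.75-fold higher. At E18, deletion at E15 gave 0.207 and 0.573 CPM (4 and 15 counts), 880-fold lower than WT (log2 -9.78, SE 0.92). Without replicate 2 of the deleted group that log2 value was -10.76. Adult ileum was 407 and 825 CPM without Cre and 4.76 and 12 CPM with the label Cdx2-/-, 74.9-fold lower (log2 -6.23, SE 0.66), with log2 -7 without replicate 2 of the labelled group and -5.64 without replicate 2 of WT. Intestinal and immune markers were lower in the same contrasts: the 4 intestinal ones summed to 3100 to 3170 against 8780 to 8800 CPM after deletion at E15 and to 3940 to 4360 against 7200 to 7300 CPM in the adult, and 6 immune ones to 11.4 to 12.6 against 269 to 272 CPM and to 4.42 to 4.68 against 26.3 to 55.2 CPM. Their part in the Car4 levels was not tested. All 5 embryonic libraries harvested at E16 with that label were below every E18 WT library. The E16 hindstomach, the highest stomach group, overlapped the group deleted at E10.

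Car9, a membrane enzyme with an extracellular catalytic domain whose gene is a known target of hypoxia-inducible factor and which is also present in normal stomach, stood at 13.4 and 7.33 CPM in WT intestine at E12, 4.82 and 5.88 at E14, 19.9 and 16.8 at E16 and 82.2 and 89.3 at E18. From E16 to E18 the log2 difference was 2.23 (SE 0.38). Hindstomach had 0.185 and 1.44 CPM in the E12 pair that stands apart, 14.8 and 13 at E14 and 23.6 and 24.1 at E16. Its first interval was the largest WT step of Car9, log2 4.09 (SE 0.46), with 6.2 without E12 replicate 2 and 3.27 without E12 replicate 1. Forestomach had 2.95 and 2.6 CPM at E14 and 19.1 and 24.5 in the E16 pair that stands apart, log2 2.97 (SE 0.43). The 3 organs lay close together at E16, where forestomach overlapped both other organs.

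Deletion at E13 gave the highest embryonic Car9 levels, 427 and 420 CPM, 23.1-fold above E16 WT (log2 4.53, SE 0.41) and above E18 WT. Deletion at E15 gave 196 and 198 CPM, 2.30-fold above E18 WT (log2 1.2, SE 0.36), and the adult libraries labelled Cdx2-/- had 77.6 and 71.9 CPM against 27.9 and 38.3, 2.26-fold (log2 1.18, SE 0.19). The group deleted at E10 went the other way, with 9.08, 4.28 and 5.81 CPM, below both E16 WT libraries by log2 -1.5 (SE 0.36). In that group muscle and mesenchyme markers summed to 213 to 347 CPM against 1470 to 1610 CPM in E16 WT. Immune markers summed to 14.9 to 28.3 against 111 to 121 CPM. Both lists were also lower after deletion at E13, where Car9 was higher. The part of these markers in the Car9 levels was not tested. In the adult libraries labelled Cdx2-/- 5 neural markers summed to 225 to 329 against 5.27 to 11.2 CPM, with at most 2 above the floor. Intestinal and immune markers were lower there, by the values given beside Car4. Their part in the adult levels of Car9 and of the other genes given here was not tested. The Car9 locus overlaps the ends of Arhgef39 and Tpm2 in RefSeq. The counting strand is not given in the sources used here, so reads of these neighbours could have been counted with Car9.

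**Figure D2:**
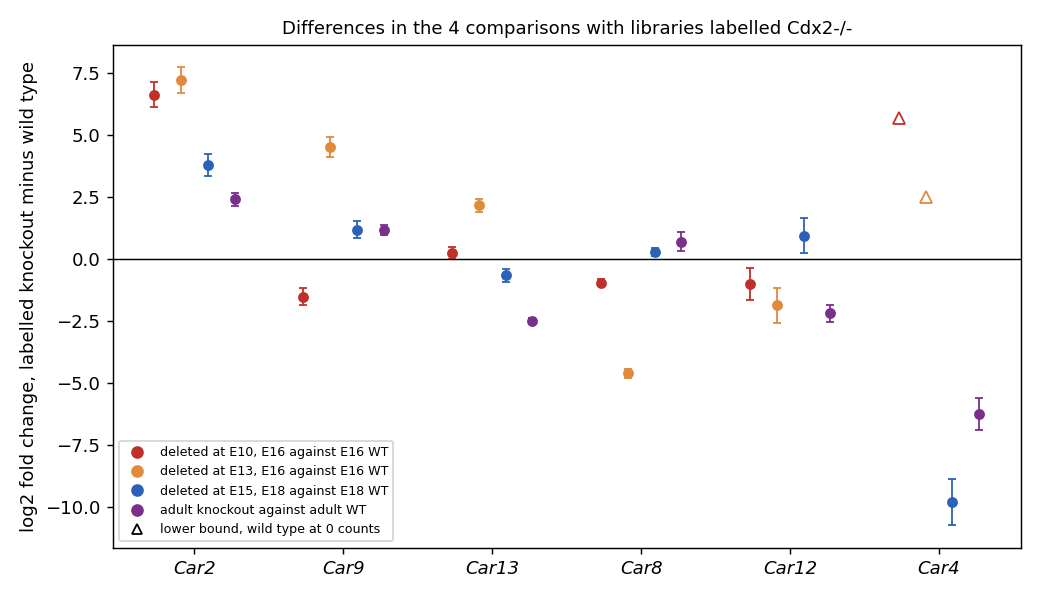
Log2 fold change (vertical axis) of 6 genes, each group labelled Cdx2-/- minus its WT group of the same day; circles with bars are the edgeR estimate and its SE, and open triangles are lower bounds where WT was at 0 counts. Car2 lies above 0 in all 4 comparisons (log2 2.42 to 7.22), whereas Car4, Car9, Car13, Car8 and Car12 lie on both sides of 0.

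Car12, a transmembrane enzyme of secretory and absorptive epithelia, was highest in E16 forestomach: 1.06 and 1.32 CPM at E12, 16.8 and 18.4 at E14, 69.2 and 67.8 at E16. The first interval, log2 3.88 (SE 0.78), does not include the E16 pair that stands apart; the second was 1.96 (SE 0.70). In intestine Car12 moved within a narrow span, from 7.36 and 7.22 CPM at E14 to 12.3 and 15.9 at E16 and 8.96 and 7.96 at E18, and the E12 pair disagreed at 9.44 and 0.35 CPM. Deletion at E10 gave 7.48, 9.56 and 3.95 CPM and deletion at E13 gave 4.26 and 3.52 CPM, both below E16 WT (log2 -1, SE 0.63, and -1.86, SE 0.72). Muscle and mesenchyme markers summed to 213 to 347 and 73.4 to 78.2 CPM in these groups against 1470 to 1610 CPM in E16 WT. Immune markers summed to 14.9 to 28.3 and 55.9 to 59.4 CPM against 111 to 121 CPM. Hindstomach markers were higher, by the values given beside Car2. The part of these markers in the Car12 levels was not tested. After deletion at E15 Car12 was 17.4 and 15.3 CPM, above E18 WT by log2 0.95 (SE 0.70). In adult ileum it was 4.8 and 8.63 CPM against 25.6 and 34.6 CPM, log2 -2.18 (SE 0.34).

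Car14, another transmembrane enzyme, was highest at E12 in every organ. Intestine had 48.7 and 74.7 CPM at E12, 7.35 and 5.52 at E14, and 0.151 and 0 at E16. Forestomach had 24.3 and 18 CPM at E12, 3.21 and 2.49 at E14 and 2.01 and 2.6 at E16, and hindstomach 85.7 and 131, then 9.95 and 10.4, then 0.488 and 0.652 CPM. From E12 to E14 the log2 difference was -3.25 (SE 0.45) in intestine, -2.89 (SE 0.45) in forestomach and -3.41 (SE 0.45) in hindstomach, where the E12 pair is the one that stands apart. At E18 and in the groups labelled Cdx2-/- at most 10 counts were seen in any library. Car14 overlaps Aph1a in RefSeq, so the remark on Car9 and its neighbours holds here too.

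**Figure D3:**
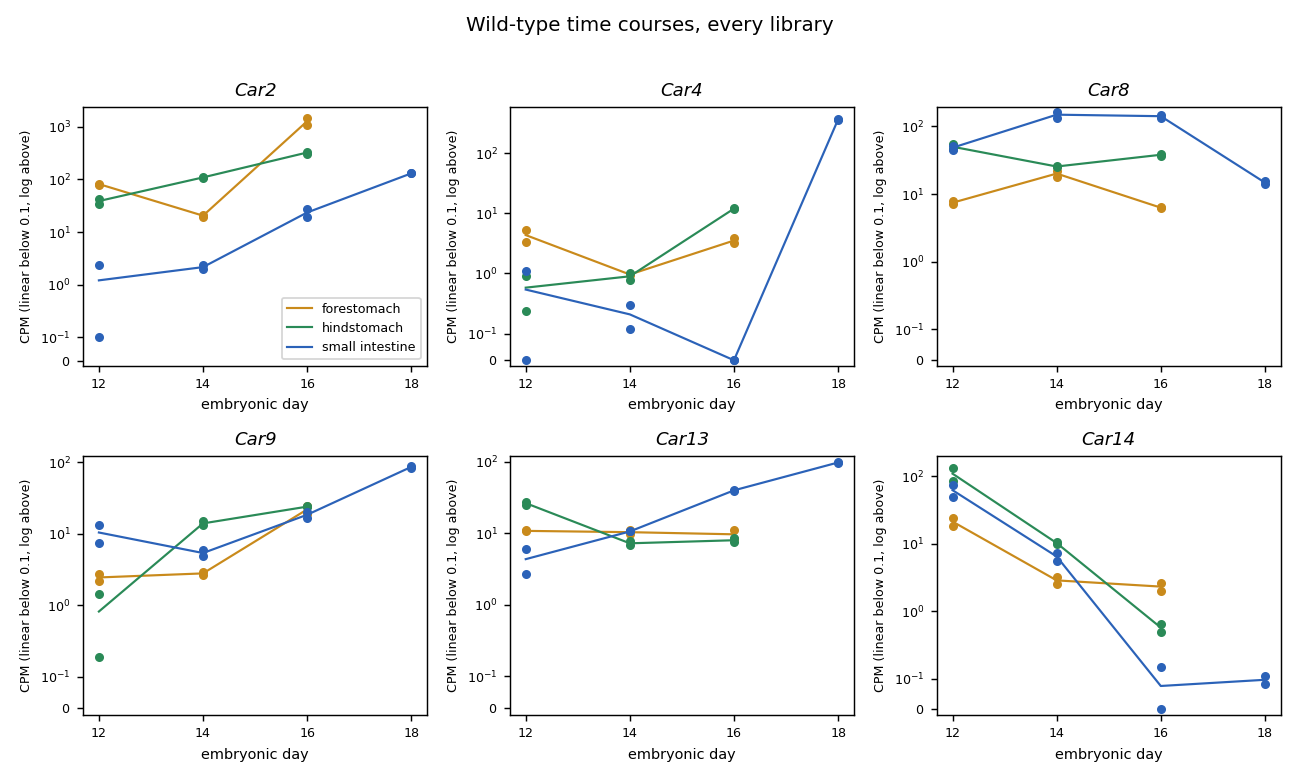
CPM of 6 genes in WT libraries (points) and group means (lines) against embryonic day, for forestomach (ochre), hindstomach (green) and small intestine (blue), on an axis linear below 0.1 and logarithmic above. In intestine Car13 climbs on each day from a mean of 4.35 to 97.5 CPM, Car4 appears between E16 and E18, and Car14 is lower in all 3 organs at E14 than at E12.

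Comparisons of genes outside the 9 used edgeR's quasi-likelihood test, and a gene is called here when its Benjamini-Hochberg adjusted p is below 0.05 and its fold at least 2. Of all 17239 embryonic genes tested, 16.2% were called between E12 and E14 in intestine, 25.6% between E14 and E16 and 42.1% between E16 and E18. The shares were 12.7% and 37.7% for the 2 forestomach intervals and 17.2% and 22% for the 2 hindstomach intervals. At E16, 20.1% were called between forestomach and hindstomach, 35% between forestomach and intestine and 25.7% between hindstomach and intestine. The share was 51.5% for deletion at E10, 39.5% at E13 and 17.5% at E15, and 20.4% of 12444 genes in adult ileum. The counts below are read against these shares.

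The other 7 carbonic anhydrases were low, and 6 of them passed the embryonic filter. In WT, 2 fell from E12 to E14 in intestine, 0 moved from E14 to E16 and 1 fell from E16 to E18; in forestomach 0 and then 2 rose, and in hindstomach 1 fell and then 1 rose. At E16 none was called between forestomach and hindstomach, 1 was higher in forestomach and 2 in hindstomach than in intestine. Deletion at E10 gave 1 higher and 1 lower, deletion at E13 gave 1 higher, and deletion at E15 gave none. The gene called lower after deletion at E10 was Car5a, at a mean of 0.237 CPM in WT and 0 in the deleted group. Car5b, a mitochondrial enzyme, was called higher in both groups harvested at E16 with the label Cdx2-/-: 5.56 CPM after deletion at E10 and 2.96 CPM after deletion at E13 against 0.432 CPM in WT (log2 3.65, SE 0.78, adjusted p = 4.46e-04, and log2 2.75, SE 0.78, adjusted p = 0.00623; edgeR). In WT it was called higher in hindstomach than in intestine at E16, 4.95 against 0.432 CPM. Car11, a catalytically inactive relative, fell from 6.16 to 0.783 CPM between E12 and E14 in intestine (log2 -2.96, SE 0.99, edgeR adjusted p = 0.0293), and rose in forestomach from 0.56 CPM at E14 to 10.9 CPM in the E16 pair that stands apart. In adult ileum 2 of the 7 were tested and both were called lower with the label Cdx2-/-, Car7 at 0.679 against 2.82 CPM and Car15 at 0.453 against 2.4 CPM. Group means of Car5a, Car6 and Car7 were at most 2.82 CPM.

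Genes that move acid and bicarbonate across the cell membrane give the setting in which these enzymes work. Of 14 bicarbonate transporters and anion channels, Cftr among them, 3 were called higher and 2 lower between E12 and E14 in intestine (median log2 0.72 against 0.07 over all genes; calls over all 44 listed genes went from 11 to 3 in a fit of those groups alone and to 6 to 15 on leaving out 1 library), 5 higher and 2 lower between E14 and E16 (0.62 against -0.08), and 6 higher and 3 lower between E16 and E18 (0.90 against -0.05). Slc26a3, the chloride-bicarbonate exchanger of absorptive cells, was at 0.177 and 0.316 CPM at E14 and at 83.2 and 68.8 CPM at E16 (log2 8.42, SE 0.31, edgeR adjusted p = 6.80e-11). Slc26a6, a further anion exchanger, went from a mean of 85.6 CPM at E16 to 1000 CPM at E18 (log2 3.55, SE 0.33). In forestomach 1 rose and 1 fell over the first interval and 3 rose and 4 fell over the second. In hindstomach 5 and then 4 rose and 0 fell in either. Calls over all listed genes in the first hindstomach interval were 13, and 8 to 10 on leaving out 1 library. These counts include Slc4a1, the anion exchanger of red cells, which had means of 1.39, 0.271, 16.5 and 0 CPM in intestine from E12 to E18 and 0.277, 1.56 and 76.8 CPM in hindstomach, and was called in each of these intervals. From E14 on it followed the red-cell markers given above for the same libraries. In forestomach it was called from E14 to E16, at 0.442 and then 1330 CPM, and it is among the genes called lower after deletion at E10 and at E13.

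Of 11 proton pumps, sodium-proton exchangers, proton-coupled lactate carriers and a proton channel, 2 rose and 0 fell in intestine from E12 to E14, 4 rose and 2 fell from E14 to E16, and 6 rose and 0 fell from E16 to E18. The sodium-proton exchanger Slc9a3 of absorptive cells was at 0 counts in both E14 libraries and at 26.4 and 19.8 CPM at E16. In hindstomach 3 rose and 2 fell (with the same dependence on leaving out 1 library), and then 4 rose and 1 fell. Atp4a, the catalytic subunit of the gastric proton pump, stood at 2.29 and 2.63 CPM at E14. At E16 it was at 329 and 324 CPM (log2 7.05, SE 0.68). Atp4b, the beta subunit of that pump, was at 7.87 and 8.05 and then 282 and 326 CPM (log2 5.26, SE 0.45). In forestomach 1 rose and 1 fell, then 3 rose and 0 fell. At E16 forestomach against hindstomach gave 1 higher and 5 lower in the bicarbonate list and 1 higher and 4 lower in the proton list. The single higher bicarbonate gene was Slc4a1, at 1330 against 76.8 CPM in the pair that carries red-cell markers. Forestomach against intestine gave 3 and 7, and 6 and 2; hindstomach against intestine gave 5 and 3, and 4 and 2.

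The groups deleted at E10 and at E13 share the same E16 WT libraries as controls, so their values are given side by side. Atp4a, Atp4b and the basolateral exchanger Slc9a4 of acid-secreting cells were all called higher after deletion at E10 and at E13. In WT intestine at E16 Atp4a was 0.352 and 1.2 CPM, Atp4b 0 and 0.382 CPM, and Slc9a4 0 and 0.655 CPM. Deletion at E10 gave Atp4a at 10.2, 23.7 and 10 CPM (log2 4.26, SE 0.71), and deletion at E13 at 365 and 364 CPM (log2 8.89, SE 0.78). For Atp4b the libraries deleted at E10 had 155, 314 and 151 CPM and those deleted at E13 had 157 and 159 CPM. Slc9a4 was at 23, 31.9 and 23 CPM after deletion at E10 and at 101 and 101 CPM after deletion at E13. After deletion at E15, where Car2 was 13.9-fold above WT, Atp4b was at only 0.103 and 0.153 CPM, while Slc9a4 was called higher at 114 and 121 CPM and Atp4a at 62.4 and 60.7 CPM. In adult ileum Slc9a4 was 52.8 and 35.9 CPM against 1 and 0.51 CPM and Atp4a 11.6 and 11.7 CPM against 0.188 and 0.113 CPM, both called higher, with Atp4b at 0 and 0.0713 CPM.

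Over the whole proton list, 4 genes rose and 5 fell after deletion at E10 (median log2 -1.40 against -0.10 over all genes), 7 rose and 0 fell after deletion at E13 (2.35 against -0.05), 2 rose and 2 fell after deletion at E15 (0.08 against 0), and 2 rose and 0 fell in the adult, where 8 of 11 were tested (-0.26 against 0.01). Of the bicarbonate list, 1 rose and 8 fell (median -1.95), 6 rose and 2 fell (1.86), 1 rose and 2 fell (-0.31), and in the adult 1 rose and 3 fell of 10 tested (-0.52). The adult calls over all listed genes went from 11 to 6 on leaving out either one of the libraries labelled Cdx2-/-. The 2 groups harvested at E16 had medians of opposite sign in both lists. Slc26a3 was 2.81, 2.94 and 3.46 CPM after deletion at E10 and 1880 and 1780 CPM after deletion at E13, against 83.2 and 68.8 CPM in WT at E16 and 417 and 417 CPM in WT at E18. Slc9a3 was 0.267, 0 and 0 CPM in the first and 200 and 196 CPM in the second, above its 120 and 117 CPM in WT at E18. The 4 intestinal markers summed to 60 to 95.5 CPM after deletion at E10, 3510 to 3570 CPM after deletion at E13, 2010 to 2050 CPM in WT at E16 and 8780 to 8800 CPM in WT at E18. After deletion at E13 these intestinal markers were thus higher than in WT at E16, as Slc26a3 and Slc9a3 were. Against WT at E18, which differs in day and preparation, the markers were lower and both genes higher. The 3 hindstomach markers summed to 3290 to 7940 CPM and 1620 to 1690 CPM in the groups deleted at E10 and at E13, against 3.77 to 4.93 CPM in WT at E16, and they were also higher after deletion at E15 and in the adult group labelled Cdx2-/-, by the values given beside Car2. The part of either marker list in the carbonic anhydrase levels, or in those of Atp4a, Atp4b, Slc9a4, Slc26a3 and Slc9a3, was not tested.

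**Figure D4:**
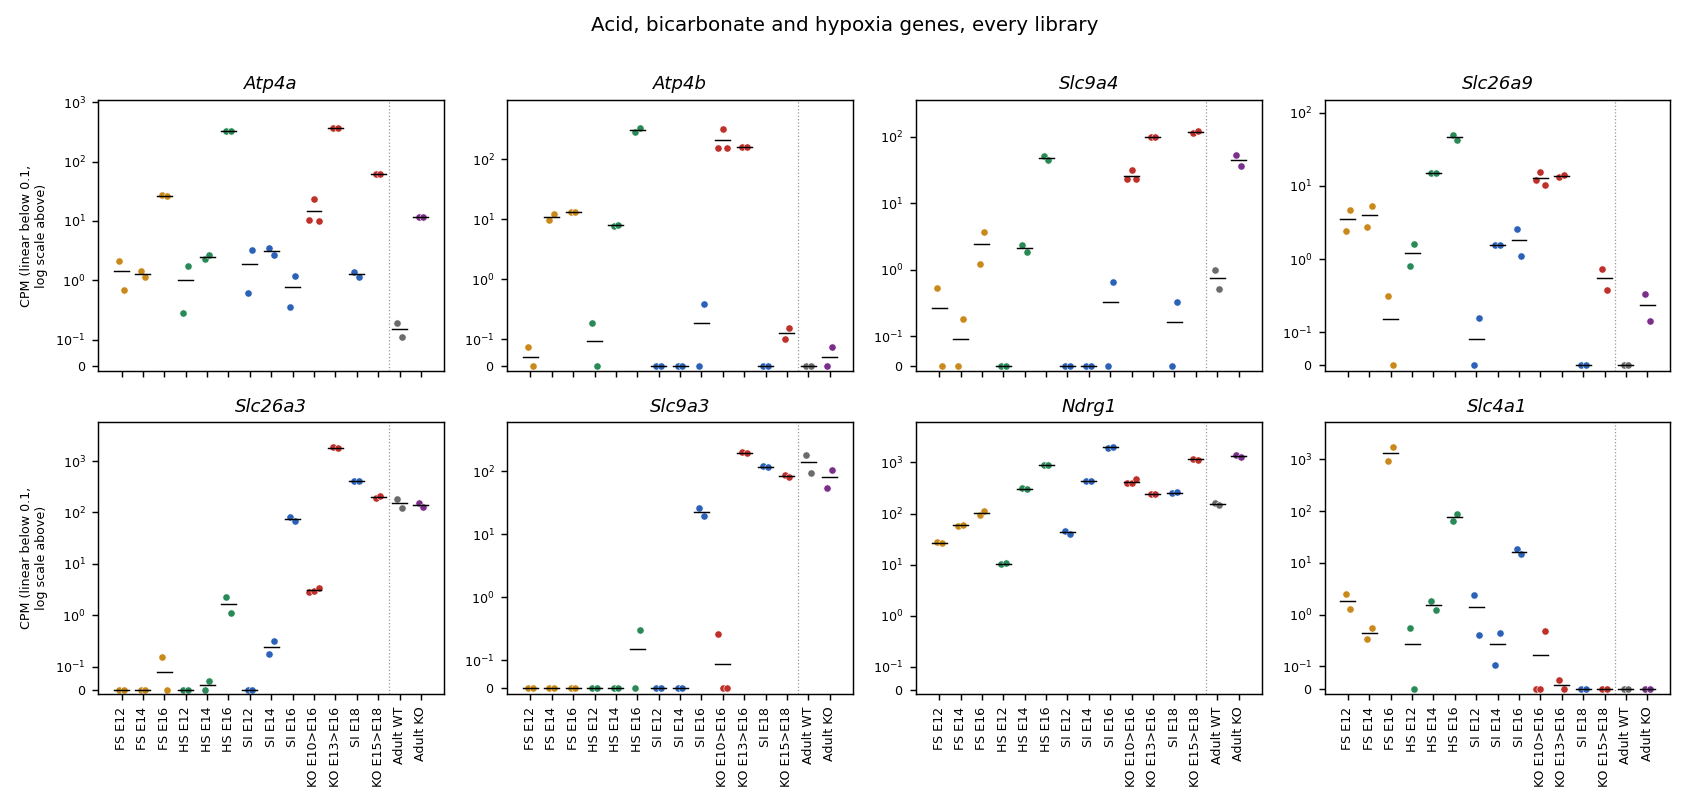
CPM of 8 genes that are not carbonic anhydrases in every library (points) with group means (bars), with groups, colours and axis as in the plot of the 9 genes. Atp4a has means of 326 CPM in E16 hindstomach, 14.6, 365 and 61.6 CPM in the groups deleted at E10, E13 and E15 and 0.777 CPM in E16 WT intestine, Slc26a3 is at 2.81 to 3.46 CPM after deletion at E10 and 1780 to 1880 CPM after deletion at E13, and Slc4a1, the anion exchanger of red cells, is highest in the E16 forestomach pair.

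The 12 genes known as targets of hypoxia-inducible factor were listed without Car9, itself such a target. In intestine 2 rose and 0 fell from E12 to E14 and 2 rose and 2 fell from E14 to E16. From E16 to E18, the interval over which Car9 was 4.68-fold higher, 1 rose and 5 fell (median log2 -0.95). Of all genes, 42.1% were called over that last interval. After deletion at E13, with Car9 23.1-fold higher, 0 rose and 6 fell (median -1.28 against -0.05 over all genes). Of all genes, 39.5% were called there. Ndrg1, a stress-induced protein, was 237 and 241 CPM there against 1950 and 2030 CPM in WT at E16 (log2 -3.06, SE 0.12, edgeR adjusted p = 3.18e-13). After deletion at E10, with Car9 lower, 1 rose and 6 fell (median -1.04), where 51.5% of all genes were called. After deletion at E15, 2 rose and 1, P4ha1, fell (median -0.30 against 0), and in the adult 3 rose and 0 fell of 12 tested (0.53 against 0.01), a comparison whose listed-gene calls went from 11 to 6 on leaving out either one of the labelled libraries. Ndrg1 rose in both: it was 1150 and 1140 CPM against 250 and 260 CPM at E18 (log2 2.17, SE 0.12), and 1400 and 1300 CPM against 161 and 145 CPM in the adult (log2 3.14, SE 0.15). In forestomach 3 rose and 1 fell and then 3 rose and 3 fell, and in hindstomach 2 rose and 0 fell and then 2 rose and 1 fell. At E16, 0 were higher and 2 lower in forestomach than in hindstomach, 1 and 5 against intestine, and 0 and 3 in hindstomach against intestine. The part of hypoxia-inducible factor in the Car9 levels was not tested.

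The profile of each member over the 13 embryonic groups was compared with that of 10671 or 10672 other genes by the root mean square (RMS) difference of centred log2 CPM; these points share libraries and scaling, and the values are a description. Car13 had the closest companions, Serpinb6a at an RMS of 0.55, Amdhd2 at 0.60 and Nat2 at 0.60, against a spread of its own of 1.59. In unscaled RMS Car9 came next, with Rab43 at 0.88, Arrb1 at 0.91 and Il4ra at 0.92 against its own 2.5. Car8 had Nipsnap1 (1.01), Echdc3 (1.04) and Galk1 (1.08), and Car12 had Gadd45g (1.01), Mcc (1.01) and Irs2 (1.02), against spreads of 1.5 and 1.51. Car14 had Aif1l, Elovl2 and Ypel1 at 1.5 to 1.59 against 3.33. Car2 and Car4 had the largest RMS to their nearest genes: for Car2 these were Kcnn4 at 1.97, Nqo1 at 2.07 and Akr1b8 at 2.09 against 3.67, and for Car4 they were Cpne2, Hspa1b and Edn3 at 2.05 to 2.15 against 2.97. Over the 10 WT groups alone the first-ranked gene was Amdhd2 for Car13 (0.36), Slc40a1 for Car8 (0.56) and Il4ra for Car9 (0.7). Of the 3 nearest genes, 2 were shared with the ranking over 13 groups for Car9, 1 each for Car12, Car13 and Car14, and 0 for Car2, Car4 and Car8.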

How the data were processed

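RNA-seq of 31 libraries was used, given as raw whole-number read counts per gene in 1 table that the authors deposited. Per the submitters' processing notes, STAR 2.5.3a, Bowtie2, HTSeq, MACS2 and the mm9 build were used in the series, with no role given to each; the counting strand is not given in the sources used here. In the 4 adult columns, 2 cells were blank and the values below them were shifted by a row at each blank; they were closed up, after which the rank correlation with the E18 WT libraries over the rows between the blanks went from 0.28 to 0.295 as deposited to 0.929 to 0.962. All 9 members lie above the first blank. Another 2 columns matched no sample and were not used.

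Genes passing filterByExpr (minimum count 10) were fitted with edgeR 4.0.16 in R 4.3.3 (TMM scaling, quasi-likelihood test, 1 coefficient per group), the 27 embryonic libraries together (17239 genes) and the 4 adult libraries apart (12444 genes). Each SE was obtained by dividing a log2 difference by the square root of its F statistic. All 9 members passed the embryonic filter and 6 the adult one. The code was tested on simulated data. Alternatives were RLE scaling, DESeq2 1.42.0, no filter, other sets of samples in the fit, the replicate block, no fold minimum and leaving out each library.

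The members, gene lists and tests were chosen with earlier results of these data known. Named genes are the 9 members, Cdx2 as a check of labels, the other 7 carbonic anhydrases, and from each list the called genes with the largest differences (at most 3 per list, direction and comparison, average log2 CPM at least 2, groups not overlapping), with their values followed in other groups. Likeness used log2 CPM with a prior count of 2, for members with a group mean of at least 20 CPM.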

Additional observations from a re-analysis of the deposited data

Results flagged for a closer look

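Each of the following pairs of comparisons shared no library and gave a gene differences of opposite sign, each at least log2 1 and with no overlap between groups, which is what set it apart; the difference between the comparisons was not tested. Where WT was at 0 the log2 value is a bound from the floor. Car4 had a log2 difference of at least 5.71 after deletion at E10 and at least 2.52 after deletion at E13, against -9.78 after deletion at E15, which are at least 15.49 and 12.3 apart. Against the adult value of -6.23 the same 2 groups lie at least 11.94 and 8.75 apart. WT intestine held 0 counts of Car4 at E16 and 359 and 372 CPM at E18, from different preparations.

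Car9 had -1.5 after deletion at E10 against 1.2 after deletion at E15 and 1.18 in the adult, differences of -2.7 and -2.68. Pairs that share the E16 WT libraries were not listed. Car13 had 2.17 after deletion at E13 against -2.49 in the adult, 4.66 apart.

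From E12 to E14, Car12 had 3.88 in forestomach and -1.59 in hindstomach, 5.47 apart. Over the same interval Car2 had -1.99 in forestomach and 1.49 in hindstomach, a difference of -3.48, and Car13 had -1.86 in hindstomach and 1.28 in small intestine, a difference of -3.14. The hindstomach values of these 3 rest on the E12 pair with intestinal markers.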

How the results depend on the processing

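For the members, 670 alternative values of 74 log2 fold changes were computed and 0 changed sign; the largest shift was 0.37 among settings that kept all libraries and 6.57 on leaving out 1 library, for Car3 in E16 forestomach against intestine (4.61, and 11.18 without E16 intestine replicate 1). Car13 from E12 to E14 in intestine went from 1.28 to 1.95 without E12 replicate 2. Group levels above 1 CPM came to 0.91 to 1.17 times the reported ones with RLE and 0.56 to 1.3 times with total counts. Under RLE the all-gene median shifted by 0.26 from E14 to E16 in forestomach, 0.19 and 0.15 for E16 forestomach against intestine and hindstomach, and 0.13 and 0.11 from E14 to E16 in hindstomach and intestine.

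Of 141 alternative counts of called genes among the 44 listed genes, 132 were within 1.5 times the reported count. From E12 to E14 in intestine the count was 11, but 3 in a fit of those groups alone, 19 with no fold minimum, and 6 to 15 on leaving out 1 library, with 6 without E12 replicate 1 or E14 replicate 1. With no fold minimum it was 17 in place of 10 after deletion at E15 and 15 in place of 8 from E12 to E14 in forestomach. It was 6 in place of 11 in the adult on leaving out either one of the libraries labelled Cdx2-/- (6 to 13 over all 4), and 8 in place of 13 from E12 to E14 in hindstomach without E14 replicate 2 (8 to 10 over all). The cause was not tested.

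Replicate numbers were no sign of pairing: over 78 pairs of groups the correlation of same-numbered deviations ran from -0.04 to 0.1. With the replicate block the counts were 8 to 25 and 0 moved by over 1.5 times. Car1, Car3 and Car14 held at most 1 count in an adult library, so no adult difference of theirs was detectable.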
